A study of Homo sapiens with 28 samples.

Results

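INSIG1 and 7 further genes of cholesterol synthesis, SREBF2, HMGCS1, IDI1, SQLE, LSS, DHCR7 and ACAT2, were followed in RNA from the human lung cancer lines NCI-H2009 and NCI-H596. They are 8 of 13897 genes named in the 3 expression tables of the series, and all 8 were present in every table and passed the filter on low values there. The 8 genes were picked by name with their differences after knockdown of RUVBL1 and after compounds B and C already in view, so those differences are a description. Where the fits' calls among the 8 are counted in these contrasts, they stand beside the share of all genes called, and nothing is read from them. The title of the series concerns the ATPases RUVBL1 and RUVBL2, and the comparisons ask how RNA levels differ when RUVBL1 is depleted or when either compound is added.

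Each of the 10 RNA groups held 2 libraries, labelled replicate 1 and replicate 2, and both lines are labelled non-small cell lung cancer, adenocarcinoma, with genotype WT. H2009 cells received an siRNA against RUVBL1 (siBL1) or the control siRNA labelled siNT for 2.5 days, and H596 cells received the same siRNAs for 3 days, by reverse transfection in wells of a plate. In a separate experiment, cells of either line grown in dishes received 100 nM of compound B (compB) or compound C (compC) for 24 h or were left untreated. No vehicle control is named in the labels, and neither compound's structure is given there. Nothing in the labels says that replicates came from separate cultures, so the spread between the libraries of a group may be technical. A further 8 libraries of mutagenised RUVBL1 or RUVBL2 cDNA hold no value of these genes and were not used here.

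Values are FPKM, fragment counts scaled for transcript length and library size. Differences between groups are on the log2(FPKM + 1) scale, which understates the change of genes at low FPKM. No read counts are given, so the depth behind a value is unknown. RUVBL1 stood at 1.75 and 1.11 FPKM after siBL1 and at 87.8 and 64.3 after siNT in H2009, and at 2.26 and 2.52 against 112 and 123 in H596, so the siRNA labels and the targeted gene matched. Epithelial markers were high in every library, with summed levels between 827 and 4389 FPKM. NKX2-1 and SFTA3, markers of the lung adenocarcinoma lineage, summed to between 33.8 and 180 FPKM in the H2009 compound libraries and to between 0.330 and 1.22 in those of H596. The squamous markers TP63, KRT5, KRT6A, KRT14 and DSG3 summed to between 1114 and 1824 FPKM in the same H596 libraries and to at most 1.80 in H2009, so H596 carried squamous markers against its adenocarcinoma label. Of 5 immune, 4 endothelial and 3 hepatocyte markers, CD68 was listed in all tables (2.85 to 22.8 FPKM), CDH5 in the H596 siRNA table (1.22 to 1.57 FPKM), and no other. Of 6 fibroblast markers, 1 to 4 were listed per table, with summed levels of 0.430 to 11.3 FPKM, highest in the H596 siRNA libraries.

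Cells make cholesterol from acetyl-CoA through the mevalonate pathway. SREBF2 encodes SREBP2, a transcription factor that is anchored in the membrane of the endoplasmic reticulum, and INSIG1 holds it there, through the sterol sensor SCAP, when sterols are plentiful. When sterols run low, the complex moves to the Golgi, the factor is cut free, and it switches on genes of cholesterol synthesis and uptake, among them HMGCS1, SREBF2 itself and INSIG1, which closes the loop. Of the enzymes among the 8, HMGCS1 makes HMG-CoA, IDI1 isomerises isopentenyl diphosphate, SQLE oxidises squalene, LSS closes the ring to lanosterol and DHCR7 carries out the last reduction to cholesterol. ACAT2 here is the cytosolic acetyl-CoA acetyltransferase, which makes acetoacetyl-CoA, not the sterol esterifying enzyme known by the same abbreviation.

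Short promoter stretches are shown because SREBP2 is known to act at sterol regulatory elements together with the factors NF-Y and Sp1. RefSeq promoters (GRCh38.p14) were matched for 6 of the 8 genes, and the 250 bases upstream of the start were searched on both strands. The core of the sterol regulatory element, TCACNCCA, was present in 1 of the 6 (SREBF2), and in 3.2% of all 35116 promoters. The NF-Y box CCAAT was present in 5 of the 6, and in 32% of all promoters, and the Sp1 box GGGCGG in 6 of the 6, and in 42.6% of all promoters. No matches of different motifs overlapped. IDI1 was the gene with neither of the first motifs. Only exact matches in this window were sought, so a miss does not show that a gene lacks such an element. In the stretches below, read 5′ to 3′ on the strand of the gene, capitals mark matches of TCACNCCA or CCAAT on either strand, so that CCAAT on the other strand reads ATTGG.
SREBF2, chr22:41832964-41833011, plus strand: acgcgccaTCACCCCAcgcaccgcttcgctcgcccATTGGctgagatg
INSIG1, chr7:155297700-155297720, plus strand: ggcctcccATTGGttgcggcc
HMGCS1, chr5:43313500-43313575, minus strand: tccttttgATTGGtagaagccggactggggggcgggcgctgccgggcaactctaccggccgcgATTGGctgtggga
LSS, chr21:46228912-46228932, minus strand: gcgctctgATTGGttgcgtgg
DHCR7, chr11:71448429-71448495, minus strand: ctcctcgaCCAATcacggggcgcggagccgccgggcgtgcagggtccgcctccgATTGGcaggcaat
The SREBF2 stretch holds both motifs within 48 bases, and the HMGCS1 and DHCR7 stretches each hold 2 NF-Y boxes. These matches are letters in a window, and no binding was measured.

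In untreated H2009 cells the 8 genes ranged, in mean FPKM, from 90.1 for ACAT2 to 18.5 for LSS. HMGCS1 (63.8), DHCR7 (62.9), IDI1 (62.8) and SQLE (60.7) came next and close to each other, and SREBF2 (26.1) and INSIG1 (25.8) lay below them. Of the neighbours in this order, the ranges of the 2 libraries were apart only between ACAT2 and HMGCS1 and between SQLE and SREBF2. In untreated H596 cells ACAT2 was again highest, at 95.0 FPKM, followed by IDI1 (92.7), DHCR7 (80.6), HMGCS1 (70.7), SQLE (32.7), SREBF2 (21.6) and LSS (17.0), with INSIG1 lowest at 14.7. There the only neighbours whose ranges did not overlap were HMGCS1 and SQLE.

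Part of the spread followed the replicate number. Over the 10 groups, replicate 1 exceeded replicate 2 in all 10 for SREBF2 (by 0.50 to 1.17 on the log2 scale), SQLE (0.19 to 1.44), LSS (0.37 to 1.11) and DHCR7 (0.68 to 1.86), and in 9 for INSIG1 (-0.03 to 0.95). HMGCS1, IDI1 and ACAT2 showed no such direction, being higher in replicate 1 in 6, 3 and 5 groups. What a number marks is not stated. Leaving out 1 library sets unlike numbers against each other, so unpaired differences of these genes move widely with it. Differences are therefore given also within each replicate number, and beside the fit of group means (the unpaired fit) a second fit that blocks on the replicate number (the paired fit) is reported. The plot of FPKM by library shows both the levels and this offset.

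**Figure D1:**
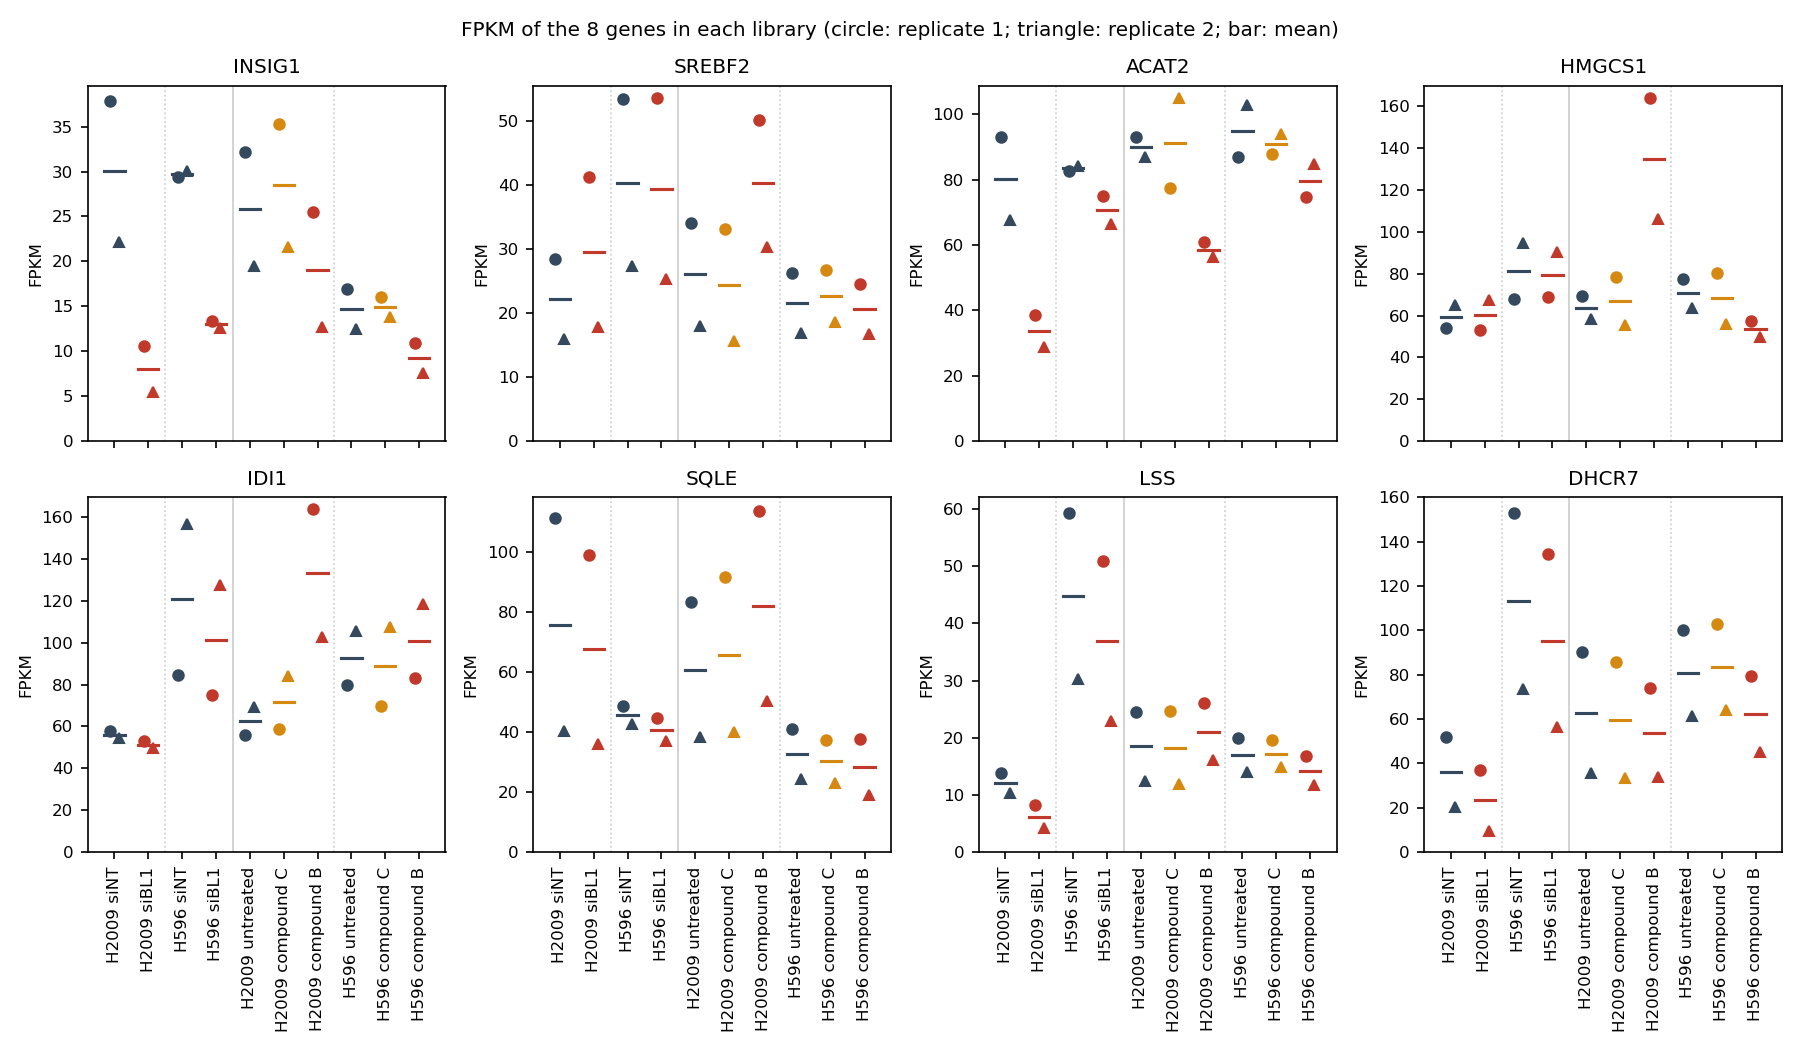
FPKM (linear axis from 0) of the 8 genes in each of the 20 RNA libraries, by group; circles are replicate 1, triangles replicate 2 and bars the mean. INSIG1 is lower after siBL1 than after siNT in both lines, and the triangle lies under the circle in all 10 groups for SREBF2, SQLE, LSS and DHCR7.

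INSIG1 RNA was lower in RUVBL1-depleted cells of both lines. In H2009 it stood at 10.6 and 5.41 FPKM after siBL1 and at 37.9 and 22.1 FPKM after siNT. The groups did not overlap, and the siBL1 library was lower within each replicate number. The difference was -1.80 on the log2 scale (SE 0.47), with -1.74 in replicate 1 and -1.85 in replicate 2. Of the 11223 genes tested, 0.0891% had a difference under that of INSIG1. In bulk RNA, fewer expressing cells and less RNA per cell cannot be told apart. In H596 INSIG1 stood at 13.4 and 12.6 FPKM after siBL1 and at 29.4 and 30.1 after siNT. Again the groups did not overlap. The difference was -1.13 (SE 0.21), with -1.08 and -1.19 in the replicates, and the share of the 12004 genes tested under it was 0.0833%. The siRNA times differ between the lines, and the difference between their effects was not tested.

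SREBF2, whose product INSIG1 retains, did not share the direction of INSIG1 in H2009. Its values there were 41.3 and 17.8 FPKM after siBL1 against 28.4 and 16.0 after siNT, overlapping groups with a difference of 0.34 (SE 0.54), which ran from -0.25 without siBL1 replicate 1 to 0.92 without siBL1 replicate 2. In H596 its values were 53.6 and 25.3 FPKM against 53.4 and 27.4, a difference of -0.05 (SE 0.53) that was 0.01 after quantile normalization.

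Among the enzymes in H2009, ACAT2 was farthest from its control. It stood at 38.7 and 28.8 FPKM after siBL1 against 93.2 and 67.5 after siNT, groups that did not overlap, and the difference was -1.22 (SE 0.35). LSS stood at 8.19 and 4.19 FPKM against 13.8 and 10.2, again without overlap, with a difference of -0.90 (SE 0.41), which was -0.49 without siBL1 replicate 2. DHCR7 was at 37.2 and 9.52 FPKM against 51.8 and 20.2, overlapping groups in which the siBL1 library was lower within each replicate number (-0.47 and -1.01). Its unpaired difference of -0.74 was -1.67 without siBL1 replicate 1 and 0.19 without siBL1 replicate 2. The early enzyme HMGCS1 lay close to its control in the same cells, at 53.1 and 67.6 FPKM against 54.2 and 64.9 (0.01, SE 0.31). IDI1 and SQLE differed by -0.13 (SE 0.28) and -0.16 (SE 0.72). In H596 the enzyme differences ran from -0.03 for HMGCS1 to -0.30 for LSS. The HMGCS1 difference in H596 was 0.03 after quantile normalization.

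Of the 8 genes, 4 had both H2009 siBL1 libraries below both controls, where 18.9% of all genes tested did, and 2 did so in H596, where 8.64% of all genes did. The unpaired limma fit called 0 of the 8, and it called 0% of genes in either direction in both lines, so RUVBL1 was not called either. At an unadjusted p under 0.05 in that fit were 2 of the 8 in H2009, where 4.74% of all genes were, and 1 in H596, where 1.14% were. The paired fit called 4 lower and 0 higher in H2009, where it called 27% of all genes lower and 15.4% higher, and 6 lower and 0 higher in H596, where it called 26.6% lower and 19.8% higher. The median of the 8 differences was -0.45 in H2009 and -0.24 in H596, beside -0.08 and -0.01 over all genes tested. Because these contrasts chose the genes, nothing is read from these counts.

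**Figure D2:**
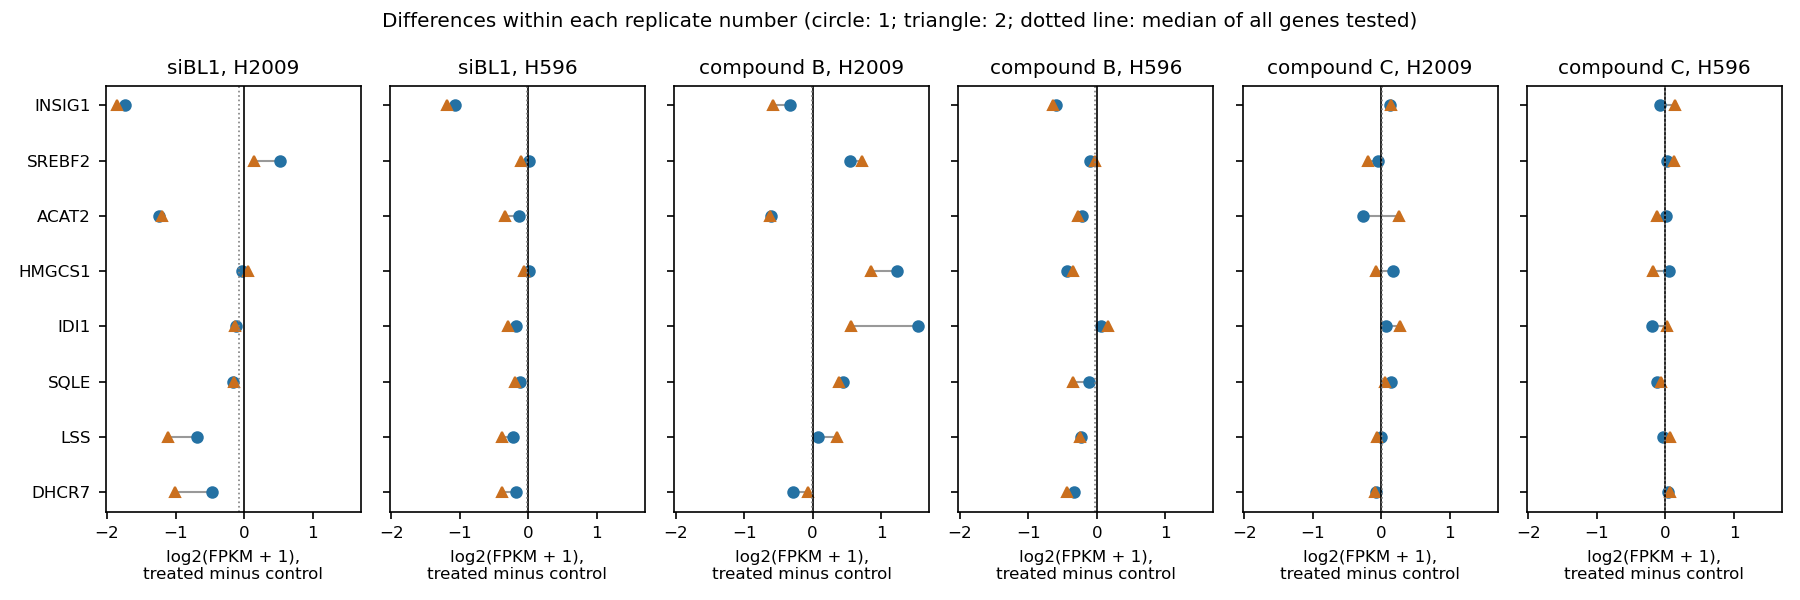
Differences in log2(FPKM + 1), treated minus control, of the 8 genes within each replicate number (circles 1, triangles 2), one panel per treatment and line; the dotted line is the median of all genes tested. INSIG1 lies left of 0 after siBL1 and after compound B in both lines, while HMGCS1 and IDI1 lie right of 0 after compound B in H2009.

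The sterol synthesis enzymes outside the 8 were tested from a list of the pathway's enzymes. This list and those below were chosen with earlier results of these data known, which limits what their p-values can show. In H2009 the unpaired limma fit called 0 of 14. At an unadjusted p under 0.05 there was 1, where 4.74% of all genes were. The paired fit called 5 lower and 1 higher, where it called 27% and 15.4% of all genes. FDPS, which makes farnesyl diphosphate, fell in the paired fit from 148 and 94.0 to 87.4 and 50.6 FPKM (-0.82, limma adjusted p = 0.000646). CYP51A1, the lanosterol demethylase, fell by 0.69 (limma adjusted p = 0.00111) and LBR, which also reduces a sterol double bond, by 0.50 (limma adjusted p = 0.00592). SC5D, the sterol desaturase of a late step, rose from 6.11 and 6.79 to 13.0 and 12.6 FPKM (0.89, limma adjusted p = 0.000918). The list's median was -0.23, beside -0.08 over all genes.

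In H596 the unpaired fit again called 0 of 15 enzymes, with 0 at an unadjusted p under 0.05, where 1.14% of all genes were. Calls of the paired fit were 12 lower and 2 higher, with a list median of -0.20 beside -0.01. The shares of all genes called there were the 26.6% and 19.8% above. FDPS fell in the paired fit from 313 and 241 to 239 and 163 FPKM (-0.47, limma adjusted p = 0.000582). FDFT1, the squalene synthase, fell by 0.27 and CYP51A1 by 0.21. SC5D, chosen here after its values were seen because it rose in H2009, differed by 0.18 (limma adjusted p = 0.0154 in the paired fit), with overlapping groups.

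Among 14 regulators of SREBP processing and of sterol-driven breakdown, the paired fit called 3 higher and 4 lower in H2009, where it called 15.4% and 27% of all genes, and 4 higher and 5 lower in H596, where it called 19.8% and 26.6%. ERLIN1 and ERLIN2, membrane proteins of the endoplasmic reticulum, were called lower in both lines, ERLIN2 at -0.70 in H2009 and -0.30 in H596. Called higher without overlap were USP20 (0.81) and RNF139 (0.38) in H2009 and MBTPS2 (0.16) in H596.

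Of 14 fatty acid synthesis genes that SREBF1 is known to drive, the paired fit called 10 lower and 1 higher in H2009, where it called 27% and 15.4% of all genes, with a median of -0.57 beside -0.08 over all genes. FADS1, a fatty acid desaturase, fell from 49.0 and 27.4 to 20.5 and 9.31 FPKM (-1.34) and MID1IP1, which promotes acetyl-CoA carboxylase activity, by 1.32. In H596 the paired fit called 5 of 14 lower and 3 higher (26.6% and 19.8% of all genes), and MID1IP1 fell by 0.81 there. Of the genes of cholesterol efflux, LXR response and esterification, the paired fit called 3 higher and 2 lower of 8 in H2009 and 4 higher and 1 lower of 7 in H596, beside the same shares of all genes in each line. NCEH1, a cholesteryl ester hydrolase, rose from 6.17 and 5.89 to 16.4 and 13.6 FPKM in H2009 (1.18, limma adjusted p = 0.000348) and from 19.9 and 20.1 to 32.5 and 35.8 in H596 (0.74, limma adjusted p = 0.000124). MYLIP, a ubiquitin ligase that LXR induces, rose by 0.79 and 0.39.
Uptake genes were called 2 higher and 2 lower of 9 in H2009 and 2 higher and 6 lower of 10 in H596, and genes of the isoprenoid branch 3 higher and 6 lower of 14, and 1 higher and 5 lower of 14. Over all genes the paired fit called 15.4% higher and 27% lower in H2009 and 19.8% and 26.6% in H596. All of these calls were made in the paired fit alone: over all lists the unpaired fit called 0 of 73 genes in H2009 (4 at an unadjusted p under 0.05) and 0 of 74 in H596 (1 at an unadjusted p under 0.05).

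With compound B, INSIG1 was lower than untreated within each replicate number in both lines. HMGCS1 and IDI1 were higher than untreated in H2009, and in H596 HMGCS1 was lower and IDI1 close to its control. The difference between the lines was not tested. In H2009 INSIG1 stood at 25.5 and 12.7 FPKM with compound B against 32.2 and 19.5 untreated. These groups overlapped, and the difference was -0.45 (SE 0.38), with -0.32 and -0.58 in the replicates. Without compB replicate 1 the unpaired difference was -0.93, and without compB replicate 2 it was 0.02. It was -0.11 without untreated replicate 1 and -0.80 without untreated replicate 2. In H596 INSIG1 stood at 10.9 and 7.61 FPKM against 16.9 and 12.5, groups that did not overlap, with a difference of -0.62 (SE 0.38), which was -0.38 without compB replicate 2 and -0.41 without untreated replicate 1.

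HMGCS1, the enzyme that makes HMG-CoA, was higher with compound B in H2009. It stood at 164 and 106 FPKM against 69.3 and 58.3 untreated, without overlap, and the difference was 1.04 (SE 0.29). IDI1 showed the same in H2009, at 164 and 103 FPKM against 56.0 and 69.5 (1.04, SE 0.33), with a wider gap in replicate 1 (1.53) than in replicate 2 (0.56). SREBF2 stood at 50.2 and 30.4 FPKM against 34.1 and 18.0, overlapping groups that differed by 0.63 (SE 0.44), by 0.54 in replicate 1 and 0.72 in replicate 2. SQLE was higher by 0.44 in replicate 1 and 0.38 in replicate 2 (0.41, SE 0.58), and LSS by 0.08 and 0.35 (0.22, SE 0.42), with overlapping groups. Leaving out 1 library at a time moved the unpaired SREBF2 difference between 0.19 and 1.08, that of SQLE between -0.17 and 0.99 and that of LSS between -0.25 and 0.68. ACAT2 ran the other way in H2009, at 60.8 and 56.2 FPKM against 93.1 and 87.1, without overlap (-0.61, SE 0.20). DHCR7 lay at -0.18 (SE 0.60), and between -0.83 and 0.48 with 1 library left out.

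In H596 the same dose and time of compound B left 7 of the 8 genes lower within both replicate numbers, where 39.2% of all genes were. HMGCS1 stood at 57.3 and 49.6 FPKM against 77.7 and 63.7, without overlap, a difference of -0.39 (SE 0.29), which was -0.25 without untreated replicate 1. ACAT2 was at 74.7 and 84.7 FPKM against 87.1 and 103 (-0.25, SE 0.20), also without overlap. DHCR7, LSS, SQLE and SREBF2 lay at -0.38, -0.24, -0.23 and -0.06, with overlapping groups, and each of these unpaired differences was above 0 without compB replicate 2 (0.02, 0.01, 0.25 and 0.21). IDI1 was the exception, at 83.2 and 118 FPKM against 79.9 and 106 (0.11, SE 0.33).

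Of the 8 genes, 2 lay above and 1 below their untreated libraries without overlap in H2009, where 26.3% and 28.1% of all genes did, and 3 lay below in H596, where 15.2% did. The unpaired fit called 1 higher and 0 lower in H2009 (6.36% and 5.02% of all genes) and 0 in H596 (0% in either direction, with 735 genes or 5.75% at an unadjusted p under 0.05, none of the 8 among them). The paired fit called 4 higher and 2 lower in H2009 (22.2% and 22.4% of all genes) and 0 higher and 1 lower in H596 (3.79% and 2.89%). The median of the 8 was 0.32 in H2009 and -0.25 in H596, beside -0.01 and -0.03 over all genes. As above, nothing is read from these counts.

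The enzymes outside the 8, in H2009 cells with compound B, were called 1 higher and 0 lower of 15 by the unpaired fit and 7 higher and 1 lower by the paired fit. The unpaired fit called 6.36% of all genes higher and 5.02% lower there, and the paired fit 22.2% and 22.4%. SC5D rose from 5.77 and 5.71 to 17.0 and 12.2 FPKM, a difference of 1.20 (SE 0.20, limma adjusted p = 0.00637). MSMO1, a sterol methyl oxidase chosen after its values were seen, was at 92.2 and 64.2 FPKM against 37.3 and 46.5 (0.87, limma adjusted p = 0.109 unpaired and 0.00575 paired). The list's median was 0.06, beside -0.01 over all genes.

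In the same cells 2 further genes of the lists passed the unpaired fit. NCEH1 rose from 6.42 and 5.53 to 23.2 and 18.5 FPKM, a difference of 1.64 (SE 0.19, limma adjusted p = 0.00112). PGRMC1, a heme-binding membrane protein that binds CYP51A1 and INSIG1, rose from 65.9 and 72.1 to 124 and 121 FPKM (0.82, SE 0.20, limma adjusted p = 0.0311). Of the 74 list genes 3 were called higher and 0 lower, a count that was 1 without compB replicate 1. The paired fit called 16 higher and 14 lower, where it called 22.2% and 22.4% of all genes. Over all genes the unpaired fit called 6.36% higher and 5.02% lower. Of the 10 uptake and transport genes, the unpaired limma fit called 0, and 3 had an unadjusted p under 0.05, as 26.1% of all genes did. In the paired fit 4 of the 10 were called higher, beside 22.2% of all genes. NPC1, a lysosomal cholesterol exporter chosen after its values were seen, was at 28.1 and 17.3 FPKM against 13.6 and 8.48 (0.97, limma adjusted p = 0.000126 paired).

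SREBF1, the sister gene of SREBF2 that drives fatty acid synthesis, lay opposite to SREBF2 in H2009 with compound B. Its values, singled out after they were seen, were 13.0 and 7.86 FPKM against 32.5 and 15.3, without overlap (-1.07, SE 0.44, limma adjusted p = 0.157 unpaired and 0.000262 paired). Of the 14 fatty acid synthesis genes the paired fit called 5 lower and 1 higher, beside 22.4% and 22.2% of all genes. The unpaired limma fit called 0, beside 5.02% of all genes lower and 6.36% higher. At an unadjusted p under 0.05 it had 2, beside 26.1% of all genes.

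In H596 the unpaired limma fit called 0 of the 74 list genes with compound B, and 0% of all genes. At an unadjusted p under 0.05 were 3 of the 74 and 5.75% of all genes. Calls of the paired fit were 3 higher and 6 lower, where it called 3.79% and 2.89% of all genes. LBR fell in the paired fit from 20.9 and 28.0 to 13.2 and 15.02 FPKM (-0.74, limma adjusted p = 0.0169). SCD, the stearoyl-CoA desaturase, fell from 170 and 128 to 100.4 and 82.2 FPKM (-0.70, limma adjusted p = 0.0191) and MYLIP rose by 0.67 (limma adjusted p = 0.0188). The list of enzymes had a median of -0.25 beside -0.03 over all genes, and its differences ran from -0.74 to 0.97. The paired fit called 1 of its 15 members higher and 1 lower, beside the shares of all genes above. Within both replicate numbers 10 of the 15 were lower, as were 39.2% of all genes, and 3 were higher.

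**Figure D3:**
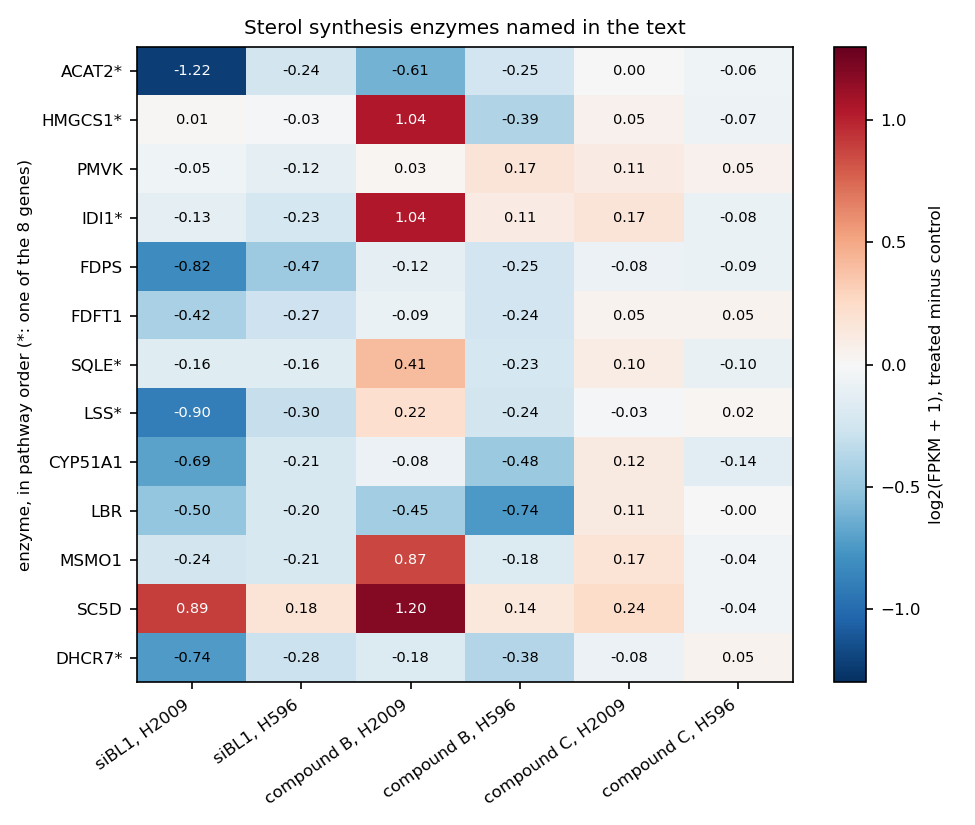
Differences in log2(FPKM + 1), treated minus control, of the enzymes among the 8 genes (marked with an asterisk) and of the further sterol synthesis enzymes named in the text, in pathway order (rows), in the siRNA and compound comparisons (columns); each cell prints its value. In H2009 with compound B, HMGCS1 (1.04), IDI1 (1.04) and SC5D (1.20) are highest, whereas most cells of the H596 siBL1 and compound B columns are below 0.

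Compound C, given at the same dose for the same time, left the 8 genes near their untreated levels. In H2009 INSIG1 stood at 35.3 and 21.6 FPKM against 32.2 and 19.5, overlapping groups with a difference of 0.14 (SE 0.38). In H596 it stood at 16.1 and 13.8 FPKM against 16.9 and 12.5 (0.03, SE 0.38). Over the 8 genes the differences ran from -0.12 to 0.17 in H2009 and from -0.10 to 0.07 in H596. The 95% interval of the paired fit for INSIG1 ran from -0.15 to 0.42 in H2009 and from -0.25 to 0.32 in H596. Both limma fits called 0 of the 8 and 0 of the 74 list genes in both lines. Of all genes, the unpaired fit called 0% higher and 0.00782% lower in H2009, the paired fit 0.00782% in each direction there, and both fits 0% in H596. At an unadjusted p under 0.05 the unpaired fit had 0 of these genes in either line (0.0704% of all genes in H2009 and 0.156% in H596). The paired fit had 0 in H2009 (1.38% of all genes) and 1, a list gene, in H596 (1.42%).

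Set against compound C at the matched dose and time, compound B gave lower INSIG1 within each replicate number in both lines. The difference was -0.59 (95% interval -1.44 to 0.26 unpaired and -0.87 to -0.31 paired) in H2009 and -0.65 (-1.50 to 0.20 and -0.93 to -0.37) in H596. With 1 library left out the unpaired INSIG1 difference in H2009 ran from -1.07 (without compB replicate 1) to -0.11 (without compB replicate 2), and was -0.25 without compC replicate 1 and -0.93 without compC replicate 2. In H2009 HMGCS1 differed by 0.99 and IDI1 by 0.87, and IDI1 by 0.54 without compB replicate 1. SREBF2 differed by 0.75, with 0.23 without compC replicate 2, 1.27 without compC replicate 1 and 0.40 without compB replicate 1. ACAT2 differed by -0.62, with -0.37 after quantile normalization and -0.40 without compC replicate 2. For LSS (0.24) and DHCR7 (-0.10) in H2009 the paired intervals ran from -0.03 to 0.52 and from -0.38 to 0.19. In H596 DHCR7 differed by -0.43 (-0.03 without compB replicate 2 and -0.09 without compC replicate 1) and HMGCS1 by -0.33 (-0.07 without compC replicate 1 and -0.58 without compC replicate 2), while SREBF2 differed by -0.13 (paired interval -0.41 to 0.14). These are 16 gene and line pairs, given as a description because the compound contrasts chose the genes. The intervals, here and for compound C against untreated, are likewise no test. Of the 74 list genes the unpaired fit called 3 higher and 0 lower in H2009 (6.16% and 5.28% of all genes) and the paired fit 15 higher and 13 lower (21.6% and 24%). The unpaired count was 1 without compB replicate 1. Without compC replicate 1 it was 4 higher and 2 lower, with 1 of the 3 among them. The 3 were SC5D (0.96), PGRMC1 (0.82) and NCEH1 (1.51), from a comparison that shares the compound B libraries with the one above. In H596 the unpaired limma fit called 0 of 74, where it called 0.00782% of all genes higher and 0% lower. At an unadjusted p under 0.05 were 4 of the 74 and 4.69% of all genes. Calls of the paired fit were 2 higher and 3 lower (2.99% and 1.67% of all genes).

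The comparison of untreated H596 with untreated H2009 was not among the contrasts that chose the genes, and it was tested. Its libraries are the controls of the compound contrasts that did, so it is not independent of that choice. The paired fit blocks on the replicate number within each line, so it pairs no library of H596 with any of H2009. It takes the offset between replicate numbers out of the error, so its small p-values here may overstate the difference between the lines. The median of all genes in this comparison was 0.08, and -0.04 after quantile normalization, so a difference of that size carries no direction. INSIG1 was at 16.9 and 12.5 FPKM in H596 against 32.2 and 19.5 in H2009, without overlap, a difference of -0.75 (SE 0.38) that missed the threshold in the unpaired fit (limma adjusted p = 0.143) and passed it in the paired fit (limma adjusted p = 0.000324). SQLE was at 41.0 and 24.3 FPKM against 83.2 and 38.3, overlapping groups (-0.82, limma adjusted p = 0.285 unpaired and 0.000154 paired). DHCR7 was higher in H596, at 100.0 and 61.3 FPKM against 90.0 and 35.7 (0.46, limma adjusted p = 0.574 unpaired and 0.00870 paired). IDI1 lay at 0.55 without overlap (limma adjusted p = 0.210 unpaired and 0.0521 paired).

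SREBF2, HMGCS1, LSS and ACAT2 differed between the lines by -0.22, 0.15, -0.06 and 0.07, with limma adjusted p-values of 0.715 to 0.927 unpaired and 0.135 to 0.702 paired. The unpaired limma fit thus called 0 of the 8, where it called 24.1% of all genes higher and 19.1% lower in H596. None of the 8 had an unadjusted p under 0.05, as 50.9% of all genes did. Calls of the paired fit were 1 higher and 2 lower, where it called 38% and 31.3% of all genes. Of the list genes, the unpaired fit called 16 higher and 14 lower of 74, and the paired fit 30 higher and 19 lower. Of the 15 enzymes outside the 8, the unpaired fit called 5 higher and 1 lower.

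SC5D was at 25.8 and 26.4 FPKM in H596 against 5.77 and 5.71 in H2009 (2.01, limma adjusted p = 3.66e-05), and PMVK, which phosphorylates phosphomevalonate, at 15.6 and 11.6 against 5.45 and 4.25 (1.32, limma adjusted p = 0.00210). INSIG2, the relative of INSIG1, was lower in H596, at 5.15 and 7.50 FPKM against 12.7 and 20.8 (-1.26, limma adjusted p = 0.0119). FADS1 and FADS2 were at 1.14 and 0.974, and at 1.13 and 0.455 FPKM in H596, against 37.6 and 27.5, and 82.0 and 42.6 in H2009. The lines thus differed widely in several genes of lipid synthesis, also in the markers of lineage given above, and what part lineage has in these differences was not tested.

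The genes whose pattern was most like that of INSIG1 were found by the root-mean-square difference of log2(FPKM + 1), centred within table and line, over the 20 RNA libraries and 10299 genes. They were RRM2 (0.19), a subunit of ribonucleotide reductase, ABCB10 (0.23), a mitochondrial transporter, RCC2 (0.25), MID1IP1 (0.25), the ubiquitin-conjugating enzyme UBE2D2 (0.26), the ubiquitin ligase LRSAM1 (0.27), and the co-chaperones BAG2 (0.28) and PTGES3 (0.29), where the median gene lay at 0.62. RRM2 had mean levels of 21.6 FPKM after siBL1 against 81.1 after siNT in H2009 and 55.9 against 106 in H596, and of 75.4 with compound B against 137 untreated in H2009 and 151 against 222 in H596. The other members of the 8 were farther away, ACAT2 at rank 202 (0.40), LSS at 449, DHCR7 at 1327, SQLE at 2840, SREBF2 at 7065, HMGCS1 at 7223 and IDI1 at 8371. Over the 12 compound libraries alone, 0 of these 8 nearest genes were among the nearest 8, so the list changed when the siRNA libraries were left out. The measure is a description over libraries that share tables and replicate numbers.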

How the data were processed

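The submitters' processing notes name the tools CASAVA (1.8.2), TopHat2 (2.0.12) and Cufflinks (2.2.1) for the RNA, and hg19 as genome build. Libraries were made with a stranded mRNA kit, per the labels' protocols. The authors deposited FPKM per gene in 3 tables, for the compounds in both lines (12 libraries, 13481 genes) and for the siRNA in H2009 (4 libraries, 12068 genes after 19 entries with date-like names were left out) and in H596 (4 libraries, 12384 genes). No label says whether the tables were normalized together, so tests were made within a table. Depth is unknown, and counting error could not be separated.

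FPKM values plus a pseudocount of 1 were log2-transformed and fitted with limma (version 3.58.1, R version 4.3.3), using trended empirical Bayes variances and Benjamini-Hochberg adjustment over all genes tested; called means an adjusted p under 0.05. Genes needed a mean FPKM of at least 1, which left 12781, 11223 and 12004 genes. One fit covered the 12 compound-table libraries. The scripts were tested on simulated data.

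Same-numbered libraries deviated together: replicate 1 minus replicate 2, over 10300 genes, correlated in 45 of 45 pairs of groups (r 0.475 to 0.979). What a number stands for is not in the labels. The unpaired fit was kept as the main one, and the paired fit has the number as a block within each line.

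The 8 genes and the lists were chosen with earlier results of these data known. Named list genes are up to 4 per list and comparison with the largest called difference and no overlap between groups, called in the unpaired fit or, where it had no call, in the paired fit; others are said to be chosen after their values were seen, and some genes that the rule takes are not reported here, though list counts include them. Promoter sequences are RefSeq's (GRCh38.p14). Alternatives were another pseudocount, no filter, quantile normalization, the replicate block, 1 line alone and leaving out each library.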

Additional observations from a re-analysis of the deposited data

Results flagged for a closer look

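For 4 of the 8 genes, both replicate numbers moved up with compound B in H2009 and down in H596. The log2 differences were 1.04 in H2009 and -0.39 in H596 for HMGCS1, 0.63 and -0.06 for SREBF2, 0.41 and -0.23 for SQLE, and 0.22 and -0.24 for LSS. With compound C the directions were also opposite for SREBF2 (-0.12 and 0.07), SQLE (0.10 and -0.10) and DHCR7 (-0.081 and 0.05), at sizes within the spread between libraries. The difference between the lines was not tested for any of these, and the genes were chosen on these contrasts. How many of all genes show such opposite directions was not counted. With compound B in H596, 39.2% of all genes were lower within both replicate numbers. SREBF2 differed there by only -0.09 in replicate 1 and -0.02 in replicate 2.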

How the results depend on the processing

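The replicate block moved the counts of list genes called more than any other setting. With the replicate block the count went from 0 to 42 for siBL1 in H2009, from 0 to 50 for siBL1 in H596, from 3 to 30 for compound B against untreated and from 3 to 28 against compound C in H2009, from 0 to 9 and from 0 to 5 for the same in H596, and from 30 to 49 between the untreated lines. After quantile normalization the count for compound B in H2009 was 8 against untreated and 6 against compound C, and with the 6 libraries of H2009 alone it was 1 in each. Leaving out 1 library at a time gave 1 to 2 and 1 to 6 in these comparisons; the 6 were 4 higher and 2 lower, 1 of them shared with the 3. Of 560 treatment differences of the 8 genes under alternatives, 57 moved by over 1 SE, 56 of them on leaving out 1 library, and 78 changed sign, 74 of them on leaving out 1 library; 1 of the 78 had exceeded its SE. The replicate block, dropping the filter and 1 line alone leave these treatment differences as they are. Their part of the 560 could neither move nor change sign. Of 64 values between the untreated lines 3 (INSIG1, SQLE and DHCR7, in the paired fit) came to pass the threshold, and 0 reversed. That fit pairs no library across the lines. Beyond the block's own removal of the offset between replicate numbers, the cause of these changes was not tested. With 2 libraries a group and no read depth, small differences could not be resolved.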
